A study of Mus musculus with 18 samples.

Results

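The immediate early genes and the feedback genes of ERK signaling were followed in cultures of mIMCD-3, an established line derived from the inner medullary collecting duct of a mouse, in which retinoic acid signaling was inhibited. The set was 35 genes given by symbol, and every transcript cluster that the array annotation gives to one of these symbols was taken. All 35 genes were found, with 37 clusters out of 23410 that carry a gene symbol and 35556 on the array, because Etv5 and Spred2 have 2 clusters each. The study hybridised 18 arrays (Mouse Gene 1.0 ST, Affymetrix) in 2 experiments, each with 3 groups of 3 arrays and 24 h of treatment. The AGN193109 experiment held vehicle (DMSO and ethanol, each at 0.1%), 1 µM AGN193109, an antagonist of all retinoic acid receptors, and 1 µM AGN193109 with 0.2 µM all-trans retinoic acid (tRA). The DEAB experiment held its own vehicle arrays with the same solvents, 25 µM DEAB (4-diethylaminobenzaldehyde), an inhibitor of the aldehyde dehydrogenases that make retinoic acid, and 25 µM DEAB with 0.01 µM tRA. The study dissolved the inhibitors in DMSO and tRA in ethanol. Whether cultures with an inhibitor alone also received ethanol was not stated in the sources used here. All groups were 1 cell line, which had been moved from 5% to 1% serum overnight and given fresh medium with the treatment. Values are deposited log2 levels, so a difference of 1 is a 2-fold change.

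Growth factors and stress activate the RAS-RAF-MEK-ERK cascade, and ERK then drives transcription of immediate early genes within minutes, without new protein synthesis. Many of these encode transcription factors, such as the FOS and JUN proteins of AP-1 and the EGR proteins. The feedback genes of the set, not all of which are immediate early genes, act against the cascade. The dual-specificity phosphatases (DUSPs) dephosphorylate MAP kinases, and the Sprouty and Spred proteins restrain the cascade upstream of ERK. Serum is a classical inducer of these genes, and in kidney epithelium they also respond to injury. The 24 h samples hold the level at 1 late time and not an early peak.

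The epithelial markers Cdh1, Epcam, Krt8 and Krt18 had vehicle means of 11.2 to 14.0 in both experiments. Those of the principal cell markers Aqp2, Aqp3, Avpr2 and Scnn1a lay between 6.47 and 8.01, where 30% of all cluster means lay below 6.48 and 6.63, and those of the intercalated cell markers Slc4a1, Atp6v1g3 and Foxi1 between 6.02 and 7.31. Markers of other kidney, endothelial and blood cells (Slc34a1, Umod, Slc12a1, Pecam1 and Ptprc) had 5.40 to 7.29, and the fibroblast marker Col1a1 8.21 and 8.29. The lowest correlation between arrays of one experiment was 0.985, and no pair of arrays held identical values. Arrays with the same replicate number deviated together from their group means, so tests are given without and with replicate number as a block. The labels call the arrays biological replicates, and the study's methods state 3 independent experiments, so p-values measure the spread between these samples. A change in few cells and a smaller one in all cells cannot be told apart in these bulk samples.

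All 37 clusters had a mean above the 30th percentile of all clusters in both experiments, which does not show that each transcript was detected. In the AGN193109 experiment the vehicle means of Egr2 and Fos, 7.04 and 7.13, lay below the array medians of 7.23 to 7.33. Vehicle means ran from 7.04 ± 0.05 (SD, n = 3) for Egr2 to 12.46 ± 0.28 for Myc in the AGN193109 experiment, and from 7.15 ± 0.17 for Egr2 to 13.06 ± 0.13 for Myc in the DEAB experiment. Egr2, an EGR-family zinc finger factor, was between 6.87 and 7.15 in the 9 arrays of the AGN193109 experiment. Myc, a growth-promoting transcription factor, was between 12.27 and 12.78 there. These are signals of different probes, so they give no order of transcript amounts between genes. The study's own short lists, chosen on these same arrays, hold 10 of the members, so their direction here is not independent evidence: Dusp1, Dusp5, Dusp6, Spry4, Spred3, Etv5, Nr4a1, Egr1, Fosl1 and Atf3.

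Of the 5 members called in any comparison below, Dusp1, Atf3, Nr4a1 and Dusp6 have a promoter window in the RefSeq table (build GRCm38.p6, 250 bases upstream of the start). These windows are shown so that the motifs can be seen in place, 5′ to 3′ on the strand of the gene, with any searched motif in capitals. In Dusp1 the capitals mark a CRE (TGACGTCA), the site of CREB and ATF proteins, 143 to 136 bases before the start, and in Nr4a1 an EGR site (GCGNGGGCG, here on the opposite strand) 60 to 52 bases before it. The Nr4a1 window lies upstream of a transcript start inside the gene span given below, not of the first base of that span.
Dusp1 promoter, chr17:26508473-26508722 (minus strand): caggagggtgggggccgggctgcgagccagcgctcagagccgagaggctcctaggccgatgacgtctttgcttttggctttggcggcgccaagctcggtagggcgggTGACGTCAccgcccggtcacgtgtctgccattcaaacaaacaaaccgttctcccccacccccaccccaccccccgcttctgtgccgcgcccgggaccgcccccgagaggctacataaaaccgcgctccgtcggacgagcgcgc
Atf3 promoter, chr1:191183334-191183583 (minus strand): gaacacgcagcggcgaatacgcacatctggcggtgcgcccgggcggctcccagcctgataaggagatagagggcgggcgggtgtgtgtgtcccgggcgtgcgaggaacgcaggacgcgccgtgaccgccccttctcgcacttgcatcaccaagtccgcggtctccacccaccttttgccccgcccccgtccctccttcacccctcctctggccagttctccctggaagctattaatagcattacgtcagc
Nr4a1 promoter, chr15:101266596-101266845 (plus strand): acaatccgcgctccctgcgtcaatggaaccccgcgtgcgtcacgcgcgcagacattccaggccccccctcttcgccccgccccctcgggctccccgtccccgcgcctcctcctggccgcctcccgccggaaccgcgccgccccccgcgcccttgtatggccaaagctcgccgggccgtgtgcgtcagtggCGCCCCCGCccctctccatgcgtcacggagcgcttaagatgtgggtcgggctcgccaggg
Dusp6 promoter, chr10:99262981-99263230 (plus strand): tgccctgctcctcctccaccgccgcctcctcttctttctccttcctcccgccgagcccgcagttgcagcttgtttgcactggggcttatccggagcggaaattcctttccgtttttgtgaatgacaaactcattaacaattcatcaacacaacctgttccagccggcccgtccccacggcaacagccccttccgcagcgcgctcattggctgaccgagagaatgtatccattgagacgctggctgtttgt

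That table held 32 windows for 25 of the 35 members, and the 10 members without a window could not be searched. A member is named if any of its windows held the motif, while the percentages are shares of windows. Both strands were searched for the CArG box (the serum response element core), the CRE, the AP-1 site (TGANTCA), the EGR site, an ETS core (CCGGAAGT), and the retinoic acid response elements named DR5 and DR2. A CRE was in Dusp1 and Maff, and in 1.55% of all 32851 windows. The EGR site was in Fosb, Fosl2, Maff, Klf4, Nr4a1 and Dusp2, against 4.7% of all windows, and the CArG box in Egr2 and Dusp5, against 1.47%. No member window held the AP-1 site (6.75% of all windows), the ETS core (2.88%), DR5 (0.0883%) or DR2 (0.174%). None of these motifs overlapped another in the printed windows, and the letters say nothing of binding.

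The first comparison asked how the members stood when the retinoic acid receptors were blocked. With AGN193109, the feedback genes Spry4 and Dusp6 and the orphan nuclear receptor gene Nr4a1 were higher than in vehicle by 1.62-fold, 1.46-fold and 1.60-fold, while the phosphatase gene Dusp1 was lower, at 0.688 of vehicle. These 4 passed the test once replicate number was a block (limma, adjusted p under 0.05 over all clusters), against 0.457% of all clusters. Without the block, 0 of 37 members passed, against 0.0683% of all clusters. At an unadjusted p under 0.05 in that fit, 8 members were higher and 1 lower, against 1.77% and 1.53% of all clusters. With the block these were 14 and 1, against 4.14% and 2.84%. The AGN193109 and vehicle arrays did not overlap in 9 members that were higher and 1 that was lower, against 3.66% and 2.36% of all clusters. Of the 37 clusters, 29 had a positive change, with a median of 0.08, and the median over all clusters was 0.02. By replicate number (1 to 3) the member medians were 0.17, 0.11 and 0.12, beside 0.00, 0.01 and 0.03 for all clusters.

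Among the phosphatases, Dusp1 was 11.94, 12.24 and 12.20 in the vehicle arrays (replicates 1 to 3) and 11.31, 11.79 and 11.66 with AGN193109. Dusp1, an early-induced nuclear phosphatase of p38, JNK and ERK (chr17:26505591-26508472, GRCm38), was thus lower in all 3 AGN193109 arrays than in any vehicle array, by 0.54 (SE 0.16, limma adjusted p = 1.00; with the block SE 0.07 and adjusted p = 0.0226). Dusp6, the cytoplasmic ERK-selective phosphatase that ERK itself induces (chr10:99263231-99267489), was 10.99, 11.39 and 11.05 in vehicle and 11.59, 11.79 and 11.69 with AGN193109. The groups did not overlap in the opposite direction to Dusp1, and the change was 0.55 (SE 0.12, limma adjusted p = 0.388; with the block 0.0380). Dusp5, a nuclear ERK phosphatase, had a change of 0.21 (SE 0.18, limma adjusted p = 1.00) with overlapping groups, at 10.48, 10.87 and 10.45 in vehicle and 10.67, 11.18 and 10.57 with AGN193109. The other 3 DUSP genes, Dusp2, Dusp4 and Dusp7, had changes of 0.02 to 0.11.

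Of the Sprouty and Spred genes, Spry4 was 8.92, 9.52 and 8.95 in vehicle and 9.58, 9.96 and 9.95 with AGN193109. All 3 AGN193109 arrays were above all vehicle arrays, and the change of 0.70 (SE 0.17, limma adjusted p = 0.634) passed only with the block (SE 0.10, adjusted p = 0.0369). Spry2 was 8.20, 8.43 and 8.48 in vehicle and 8.49, 8.57 and 9.08 with AGN193109, a change of 0.34 without overlap (SE 0.16, limma adjusted p = 1.00; with the block 0.315). Spred3 had a change of 0.17 with groups that did not overlap. Spry1 had -0.05, and Spred1 and both Spred2 clusters lay between 0.06 and 0.08. Size thus varied within the family from Spry4 down to Spry1, which had the opposite sign.

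For the transcription factors, Nr4a1 (chr15:101253902-101274795) was 9.82, 10.30 and 10.32 in vehicle and 10.52, 10.76 and 11.20 with AGN193109. The groups did not overlap, and the change was 0.68 (SE 0.22, limma adjusted p = 1.00; with the block SE 0.09 and adjusted p = 0.0265). Egr1, the serum-responsive zinc finger factor, was 11.09, 11.20 and 11.18 in vehicle and 11.58, 11.66 and 11.44 with AGN193109. Its change of 0.41 (SE 0.08) had the smallest unadjusted p of the members in this comparison without the block (4.47e-04), but limma's adjusted p was 0.236, and 0.0695 with the block. Egr2 and Egr3 had -0.01 and 0.03. Klf6, a Krüppel-like factor, was 11.09, 11.30 and 10.91 in vehicle and 11.39, 11.42 and 11.38 with AGN193109, a change of 0.30 without overlap (limma adjusted p = 1.00). Klf4 had 0.16, also without overlap, while Klf10 had -0.11 and Myc 0.01.

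Within AP-1, Fosl1, which encodes the FRA-1 protein, was 9.56, 10.57 and 10.09 in vehicle and 10.21, 11.13 and 10.47 with AGN193109. The arrays differed more by replicate number than by group and the groups overlapped, although each replicate number was higher with AGN193109, by 0.53 on average (SE 0.31, limma adjusted p = 1.00; with the block SE 0.09 and adjusted p = 0.0620). Maff had 0.31, Fosb 0.24, Fos 0.19 and Fosl2 0.16. The JUN genes and Atf3, a stress-induced partner of JUN, lay between -0.12 (Junb) and 0.04 (Jun). Of the PEA3-type ETS factors, which ERK induces downstream of growth factor receptors, Etv5 had 0.42 in its brighter cluster (9.80, 10.35 and 9.87 in vehicle; 10.35, 10.62 and 10.31 with AGN193109; limma adjusted p = 1.00) and 0.31 in the other (9.63, 10.29 and 9.95 in vehicle; 10.21, 10.47 and 10.12 with AGN193109). Both clusters carry the same gene symbol, and whether both measure the same transcript was not tested. Etv4 had 0.11. The changes of Ier2, Ier3, Ier5 and Phlda1, early-induced genes of less settled function, lay between -0.12 and 0.08.

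**Figure D1:**
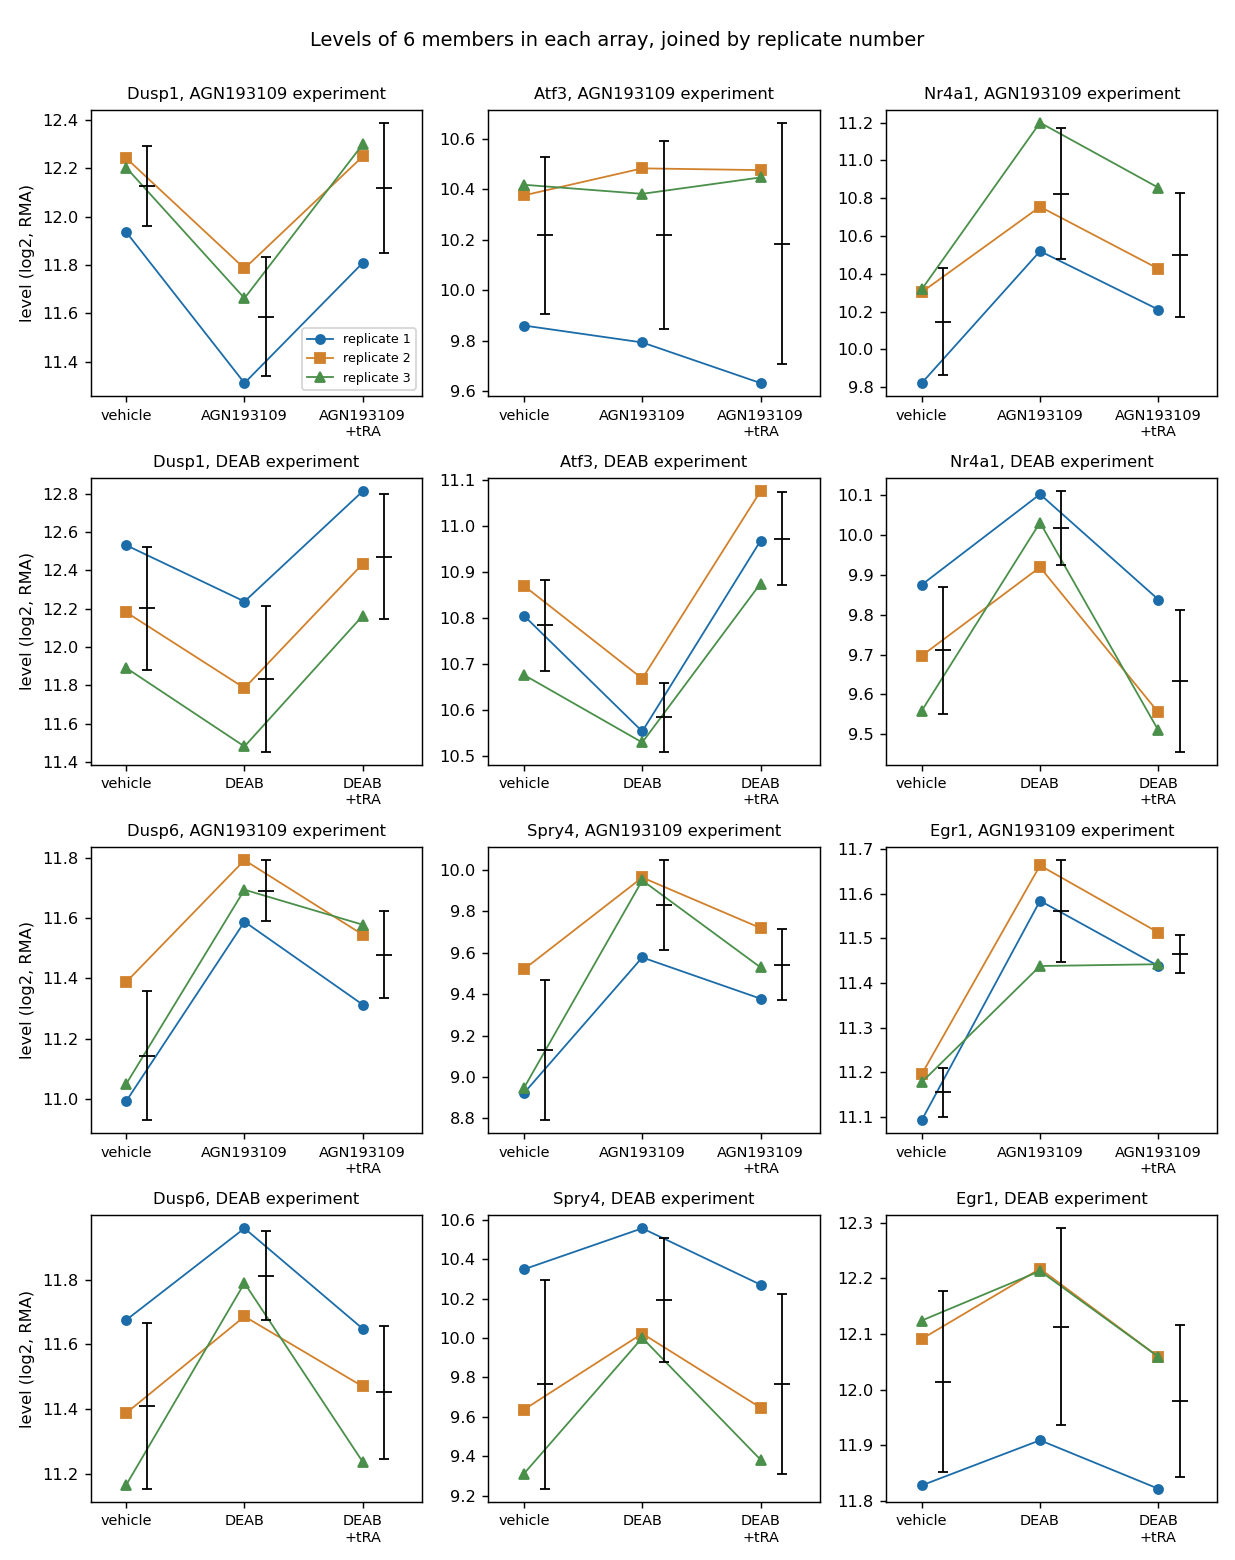
Level (log2) of 6 members in every array of both experiments; lines join arrays of the same replicate number, and the black bars give the group mean and SD of 3 arrays. Dusp1 dips with either inhibitor in every replicate number (by 0.46 to 0.62 with AGN193109 and by 0.29 to 0.41 with DEAB), while the means of Nr4a1, Dusp6, Spry4 and Egr1 are highest there. Each panel has its own level axis, which does not start at 0.

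Adding 0.2 µM tRA to AGN193109 was compared with AGN193109 alone. No member passed the test without or with the block (0 of 37, limma), against 0.0214% and 0.0812% of all clusters. At an unadjusted p under 0.05 without the block, 1 member was higher and 0 lower, against 0.692% and 1.45% of all clusters. With it, Dusp1, Phlda1, Klf10 and Junb were higher and Nr4a1, Spry4, Dusp6 and Spry2 lower (4 and 4, against 1.58% and 3.62%). Groups did not overlap in 1 member that was higher, Dusp1, and 2 that were lower, Dusp6 and Klf6, against 1.28% and 2.87%. Dusp1, the 1 member past an unadjusted p under 0.05 without the block, was 11.81, 12.25 and 12.30 in the 3 arrays with tRA, all above the AGN193109 arrays. Its difference was 0.53 (SE 0.16, limma adjusted p = 1.00; with the block SE 0.07 and adjusted p = 0.0644).

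Nr4a1, Spry4 and Dusp6 had negative differences when tRA was present, none past the test. Nr4a1 was 10.21, 10.43 and 10.86, which is 0.33 lower than with AGN193109 alone, and lower in every replicate number (limma adjusted p = 1.00; with the block 0.626). Dusp6 was 11.31, 11.54 and 11.58, below every AGN193109 array, with a difference of -0.21 (limma adjusted p = 1.00; with the block 0.889). Spry4 was 9.38, 9.72 and 9.53, a difference of -0.29 (limma adjusted p = 1.00; with the block 0.832). Egr1, Etv5 and Fosl1 moved less, with -0.10, 0.00 in the brighter Etv5 cluster and -0.07. Klf6 was 11.31, 11.33 and 11.28 with tRA, below the 11.38 to 11.42 with AGN193109 alone, but by 0.09 on average (limma adjusted p = 1.00). The genes Ier2, Ier3, Ier5 and Phlda1 had positive differences of 0.09 to 0.32, and the median over all members was 0.01. By replicate number (1 to 3) the member medians were -0.0004, -0.03 and 0.05.

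Against vehicle, the arrays with AGN193109 and tRA had 31 of 37 clusters with a positive change and a median of 0.15, where all clusters had 0.00. By replicate number (1 to 3) the member medians were 0.22, 0.06 and 0.17, beside -0.02, 0.00 and 0.00 for all clusters. This comparison and the one before share the tRA arrays, and each shares another group with the first, so they are not independent. None of the 37 passed limma's test without or with the block, against 0.00% and 0.00427% of all clusters, and 4 were higher and 0 lower at an unadjusted p under 0.05 without the block, against 0.709% and 1.08%. The 4 were Egr1, the brighter Etv5 cluster, Dusp6 and Spry4. With the block 11 were higher and 0 lower, against 1.98% and 3.06%. Groups did not overlap in 2 members that were higher, Egr1 and Fosl2, and in 0 that were lower, against 1.45% and 2.43%. Egr1 was 11.44, 11.51 and 11.44 with tRA, still above every vehicle array, by 0.31 (SE 0.08, limma adjusted p = 1.00; with the block 0.450). Etv5 was 10.33, 10.53 and 10.42 in its brighter cluster, against 9.80, 10.35 and 9.87 in vehicle, a change of 0.42 with overlap. Fosl1 had 0.46, Spry4 0.41, Dusp5 0.32, Nr4a1 0.35 and Dusp6 0.33. Dusp1, at -0.01 (SE 0.16), lay at the vehicle level. Fosl2, another FOS-related gene, had 0.10 with groups that did not overlap (10.00, 10.00 and 9.88 in vehicle; 10.11, 10.03 and 10.05 with AGN193109 and tRA).

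**Figure D2:**
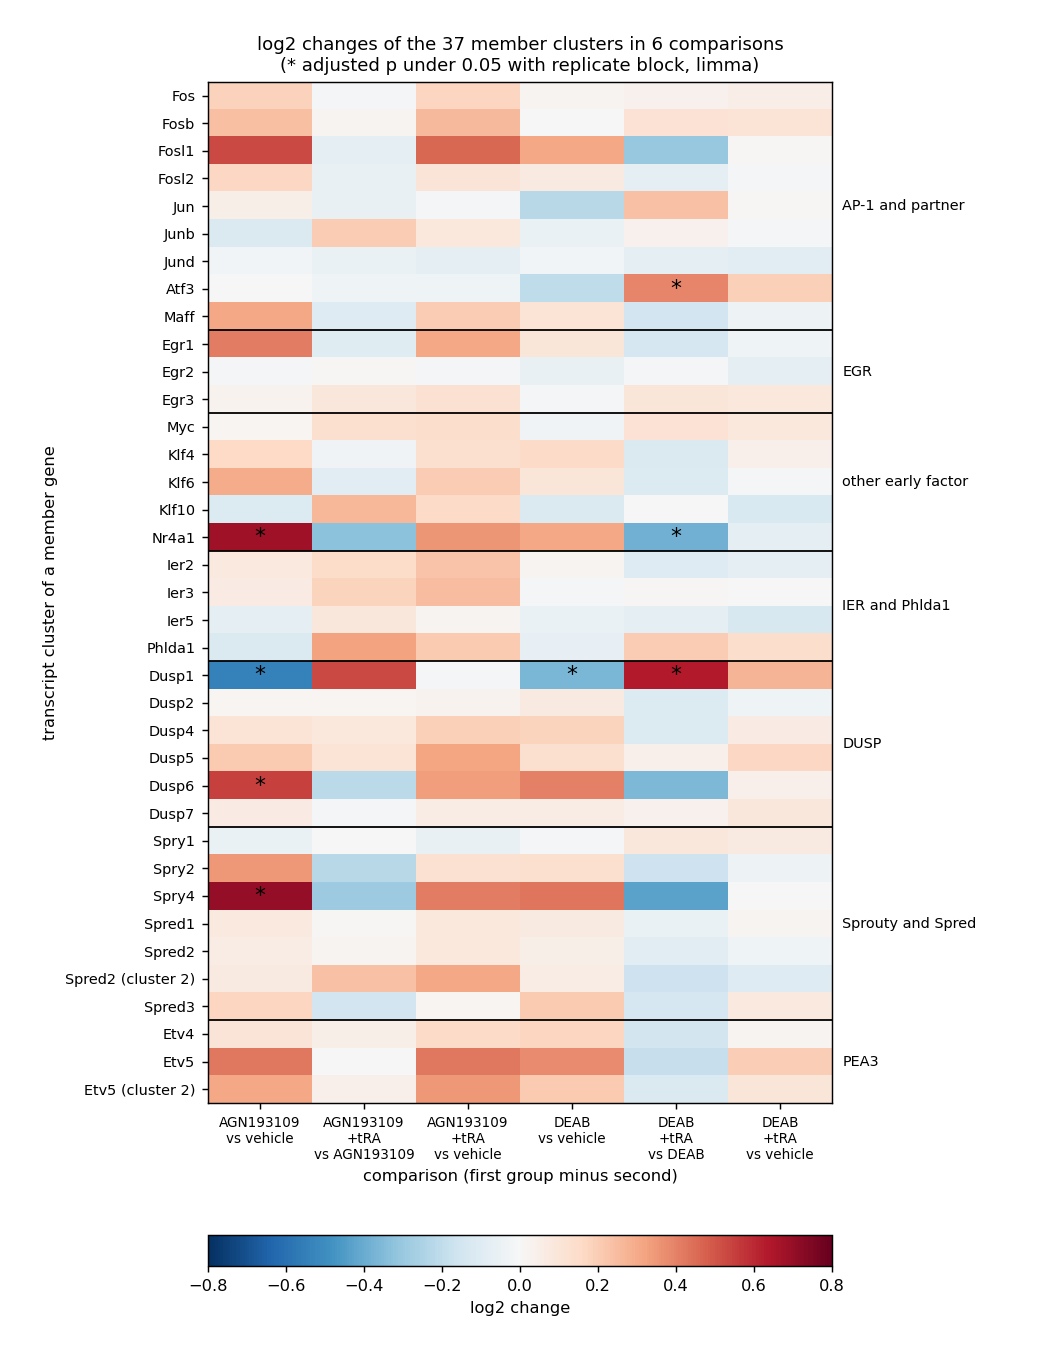
log2 change of each of the 37 member clusters (rows, in role groups) in the 6 comparisons (columns), from blue (lower in the first-named group) to red (higher), with a star at an adjusted p under 0.05 in limma with replicate number as a block. Dusp1 has the opposite colour to Dusp6, Spry4 and Nr4a1 in the 4 comparisons of an inhibitor with vehicle or of tRA added to an inhibitor.

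The DEAB comparison asked the same of cells in which retinoic acid synthesis was inhibited. Dusp1 fell with DEAB, to 0.775 of vehicle, once replicate number was a block, and it was the 1 member of 37 that passed, against 0.303% of all clusters. Dusp6, Spry4, the brighter Etv5 cluster, Fosl1 and Nr4a1 had positive changes of 0.31 to 0.43 that did not pass. Without the block, 0 of 37 passed in limma, against 0.0342% of all clusters, with 4 members higher and 2 lower at an unadjusted p under 0.05, against 2.17% and 1.88%. With the block these were 9 and 3, against 3.82% and 4.17%. Groups did not overlap in 4 members that were higher and 2 that were lower, against 3.27% and 3.61%. Of the 37 clusters, 23 had a positive and 14 a negative change, with a median of 0.06 beside 0.00 for all clusters. By replicate number (1 to 3) the member medians were 0.00, 0.03 and 0.11, beside 0.00, -0.01 and 0.01 for all clusters. The shift was thus absent in replicate number 1 and largest in replicate number 3.

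In the DEAB experiment Dusp1 was 12.53, 12.18 and 11.89 in vehicle and 12.24, 11.79 and 11.48 with DEAB. The groups overlapped, and the 3 replicate numbers fell by 0.29, 0.40 and 0.41, a change of -0.37 (SE 0.24, limma adjusted p = 1.00; with the block SE 0.04 and adjusted p = 0.0219). Dusp6 was 11.68, 11.39 and 11.17 in vehicle and 11.96, 11.69 and 11.79 with DEAB, where every DEAB array was above every vehicle array. Its change of 0.40 (SE 0.14, limma adjusted p = 1.00) did not pass with the block either (adjusted p = 0.143). Spry4 was 10.35, 9.64 and 9.31 in vehicle and 10.56, 10.02 and 10.00 with DEAB, with overlapping groups and a change of 0.43 (SE 0.30, limma adjusted p = 1.00; with the block 0.158). Spred3, a Spred protein gene, was 9.12, 9.05 and 9.00 in vehicle and 9.28, 9.31 and 9.22 with DEAB. It had the smallest limma adjusted p of the members without the block in this comparison, 0.666, with a change of 0.21 (SE 0.05) and no overlap.

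Nr4a1 was 9.88, 9.70 and 9.56 in vehicle and 10.10, 9.92 and 10.03 with DEAB, without overlap (change 0.31, limma adjusted p = 1.00; with the block 0.163). Etv5 had 0.38 in its brighter cluster, with 9.85, 9.63 and 9.28 in vehicle and 10.05, 9.98 and 9.87 with DEAB, just without overlap, and 0.21 in the other. Fosl1 was 10.91, 10.32 and 10.52 in vehicle and 11.02, 10.72 and 10.95 with DEAB, with overlapping groups (change 0.31, limma adjusted p = 1.00; with the block 0.475). Dusp5 was 11.17, 10.80 and 10.70 in vehicle and 11.13, 10.98 and 10.95 with DEAB, lower in replicate number 1 and higher in the other two. Of the 9 AP-1 and partner genes, 4 had a positive and 5 a negative change: Fosb, Jund and Junb had -0.01, -0.02 and -0.05, and Jun and Atf3 were lower without overlap. Jun was 10.73, 10.94 and 10.79 in vehicle and 10.60, 10.66 and 10.56 with DEAB (change -0.22, limma adjusted p = 1.00), and Atf3 (chr1:191170296-191183333) was 10.80, 10.87 and 10.68 in vehicle and 10.55, 10.67 and 10.53 with DEAB (change -0.20, limma adjusted p = 1.00; with the block 0.154). Egr1 had a change of 0.10 (11.83, 12.09 and 12.12 in vehicle; 11.91, 12.22 and 12.21 with DEAB), positive in each replicate number.

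Adding 0.01 µM tRA to DEAB gave 3 member calls with the block, against 1.50% of all clusters in this comparison. Dusp1 was 1.55-fold higher and Atf3 1.31-fold higher with tRA than with DEAB alone, and Nr4a1 was lower, at 0.767. Without the block 0 of 37 passed in limma, against 0.325% of all clusters, and 3 members were higher and 3 lower at an unadjusted p under 0.05, against 3.48% and 2.91%. With the block these were 5 and 9, against 5.59% and 6.22%. Groups did not overlap in 2 members that were higher and 5 that were lower, against 4.67% and 4.54%. Of all 37 clusters 24 had a negative difference, with a median of -0.08 beside 0.01 for all clusters. By replicate number (1 to 3) the member medians were 0.00, -0.03 and -0.10, beside 0.00 in each for all clusters.

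Dusp1 was 12.81, 12.44 and 12.16 with DEAB and tRA, which is 0.58, 0.65 and 0.68 above the DEAB array of the same replicate number, although the groups overlapped. The difference of 0.64 (SE 0.24, limma adjusted p = 0.702) had with the block an SE of 0.04 and an adjusted p of 7.17e-04. Atf3 was 10.97, 11.08 and 10.88 with tRA, above all DEAB and all vehicle arrays. Its difference from DEAB was 0.39 (SE 0.07, limma adjusted p = 0.0912; with the block SE 0.04 and adjusted p = 0.0049). When any 1 of the 9 arrays was left out of the blocked fit, Dusp1 and Atf3 passed in all 9 cases, with adjusted p from 0.0030 to 0.0123 and from 0.0127 to 0.0444. In the blocked fit of only the 6 arrays compared, Dusp1 passed and Atf3 did not (adjusted p = 0.0668).

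Nr4a1 was 9.84, 9.55 and 9.51 with DEAB and tRA, below every DEAB array, by 0.38 (SE 0.11, limma adjusted p = 0.384; with the block 0.0335). That call was lost whichever of the 9 arrays was left out, with adjusted p from 0.0540 to 0.176. Dusp6 was 11.65, 11.47 and 11.24 with tRA, likewise below every DEAB array, with a difference of -0.36 (limma adjusted p = 0.752; with the block 0.0887). Spry4 was 10.27, 9.65 and 9.38, lower in each replicate number by 0.29 to 0.62 (mean -0.43, limma adjusted p = 0.876; with the block 0.0739). Both Spred2 clusters and Spred3 were lower without overlap, by 0.08 to 0.16, the most in the dimmer Spred2 cluster (10.43, 10.42 and 10.42 with DEAB; 10.22, 10.38 and 10.17 with tRA). Spry1 was higher by 0.09, also without overlap (12.09, 12.11 and 12.04 with DEAB; 12.12, 12.22 and 12.17 with tRA). Jun, with 10.64, 10.96 and 10.91, had a difference of 0.23 (limma adjusted p = 0.723). The 2 experiments used different doses of tRA over different inhibitors, so the Dusp1 differences of 0.53 and 0.64 stand side by side without a test.

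Against vehicle, no member passed with DEAB and tRA together without or with the block (0 of 37, limma), against 0.00% and 0.0214% of all clusters. At an unadjusted p under 0.05, 1 member was higher and 0 lower without the block, against 4.13% and 1.86%, and 4 and 0 with it, against 5.89% and 5.20%. Groups did not overlap in 1 member that was higher and 1 that was lower, against 4.74% and 3.34%. The member past an unadjusted p under 0.05 without the block was Atf3, at 0.19 above vehicle (limma adjusted p = 0.819; with the block 0.268), and its groups did not overlap. With the block Dusp1, Dusp5 and the brighter Etv5 cluster joined it. Dusp1 was 0.27 above vehicle, by 0.25 to 0.28 in each replicate number (limma adjusted p = 0.861; with the block 0.152). Dusp6, Spry4 and Fosl1 were within 0.05 of vehicle, at 0.04, 0.00 and 0.01. Jund, a constitutive JUN gene, was 11.88, 11.88 and 11.89 in vehicle and 11.75, 11.83 and 11.80 with both agents, 0.09 lower without overlap (limma adjusted p = 0.819). The median over the members was 0.01, and by replicate number (1 to 3) it was 0.00, 0.01 and 0.04.

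The vehicle and inhibitor arrays of the 2 experiments are separate, so the changes with AGN193109 and with DEAB could be set side by side. The sign was the same in 31 of 37 member clusters (83.8%), against 53.0% of all clusters with a symbol and 53.9% of the 15986 at or above the 30th percentile in both experiments. Across the 37 clusters, Pearson's r was 0.87 and Spearman's rho 0.87, and over all clusters 0.36 and 0.11. Over the 15986 clusters at or above that percentile in both experiments they were 0.52 and 0.17. Without Dusp1 the member values were 0.84 and 0.86. The points share arrays within an experiment and genes of a common pathway, so these figures describe the arrays and carry no p. The members were chosen with earlier results of these data known, and 10 are in the study's short lists from these arrays. A higher agreement than over all clusters is therefore not independent evidence. The clusters of opposite sign were Atf3 (0.00 and -0.20), Jun (0.04 and -0.22), Fosb (0.24 and -0.01), Egr3 (0.03 and -0.01), Ier3 (0.07 and -0.01) and Myc (0.01 and -0.03). The AGN193109 change minus the DEAB change was tested directly, and 0 of 37 members passed in limma without or with the block, against 0.00% and 0.00427% of all clusters, and 1 and 6 members had an unadjusted p under 0.05, against 2.30% and 5.57%. That difference was 0.31 for Egr1 (SE 0.14, limma adjusted p = 1.00), 0.37 for Nr4a1 (SE 0.26), 0.27 for Spry4 (SE 0.37), 0.15 for Dusp6 (SE 0.19) and -0.17 for Dusp1 (SE 0.30).

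**Figure D3:**
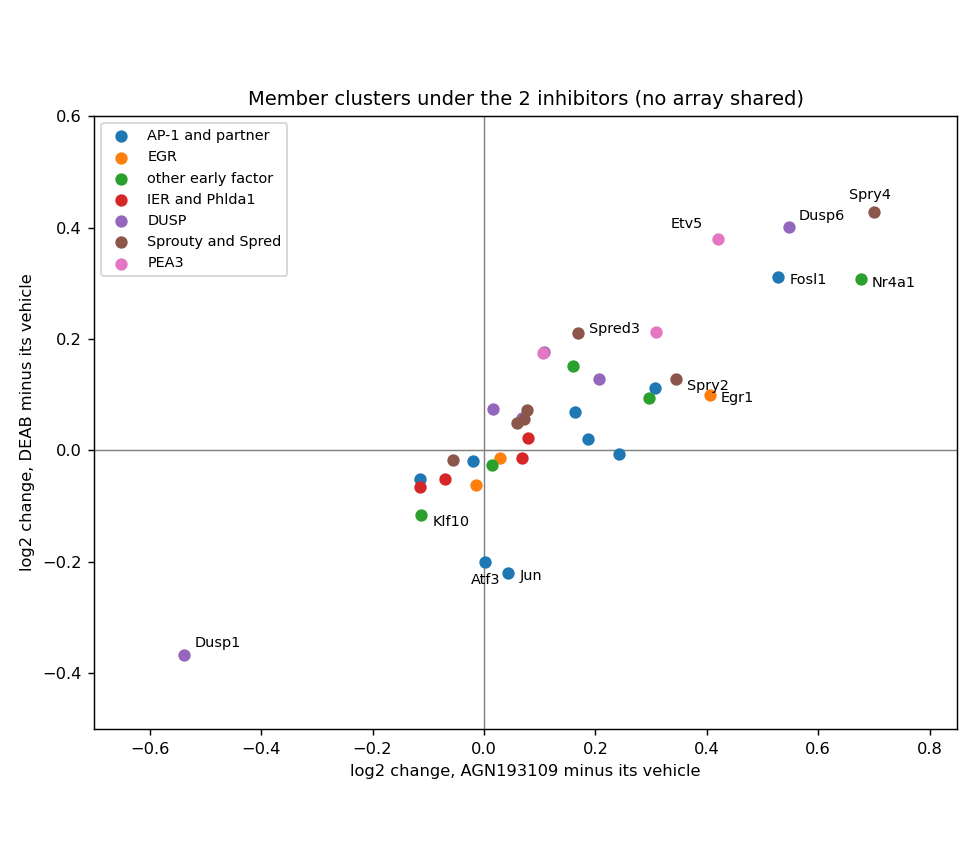
Change with AGN193109 (horizontal) against change with DEAB (vertical) for the 37 member clusters, both as log2 differences from the vehicle of the same experiment and coloured by role group. Most clusters lie near the diagonal, with Spry4, Dusp6, Nr4a1, Fosl1 and Etv5 at the upper right, Dusp1 farthest to the lower left (-0.54 and -0.37), and Atf3 and Jun below 0 with DEAB only.

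Beside the treatments, the members' levels varied with the replicate number of the culture. In limma's F-test of replicate number, 7 of 37 clusters passed in the AGN193109 experiment, against 3.32% of all clusters, and 8 in the DEAB experiment, against 7.14%. At an unadjusted p under 0.05 there were 19 and 23, against 20.7% and 22.5%. The 7 became 2 to 4 whichever of the 9 arrays was left out and 0 with clusters without a symbol added. The 8 became 4 to 13, with 4 without vehicle replicate 1 or 3 or DEAB and tRA replicate 1 and 13 without DEAB replicate 3, and 4 with the added clusters. The median range between the 3 replicate means was 0.33 for the members and 0.16 for all clusters in the first experiment, and 0.20 and 0.11 in the other. In the AGN193109 experiment the 7 were Fosl1, Atf3, Dusp5, Nr4a1, Myc, Dusp1 and Spry1. Fosl1 had replicate means of 9.95, 10.86 and 10.40 (adjusted p = 0.0067 in limma), a spread of 0.92 that was larger than its change with either inhibitor. Atf3 had 9.76, 10.45 and 10.42 (limma adjusted p = 0.0080), so that replicate number 1 stood low.

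In the DEAB experiment the 8 clusters were Dusp1, Ier3, Spry4, Egr1, Phlda1, Klf6, Dusp5 and the brighter Etv5 cluster. Spry4 had replicate means of 10.39, 9.77 and 9.57 and Dusp1 of 12.53, 12.13 and 11.85 (limma adjusted p = 0.0049 and 0.0012), highest in replicate number 1 for both. Egr1 went the other way, with 11.85, 12.12 and 12.13 (limma adjusted p = 0.0096). Dusp1 and Dusp5 passed in both experiments. The sources used here do not say what differed between the cultures, and this was not tested. With the block, the median SE of the members' changes fell from 0.14 to 0.08 in the AGN193109 experiment and from 0.09 to 0.06 in the DEAB experiment.

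**Figure D4:**
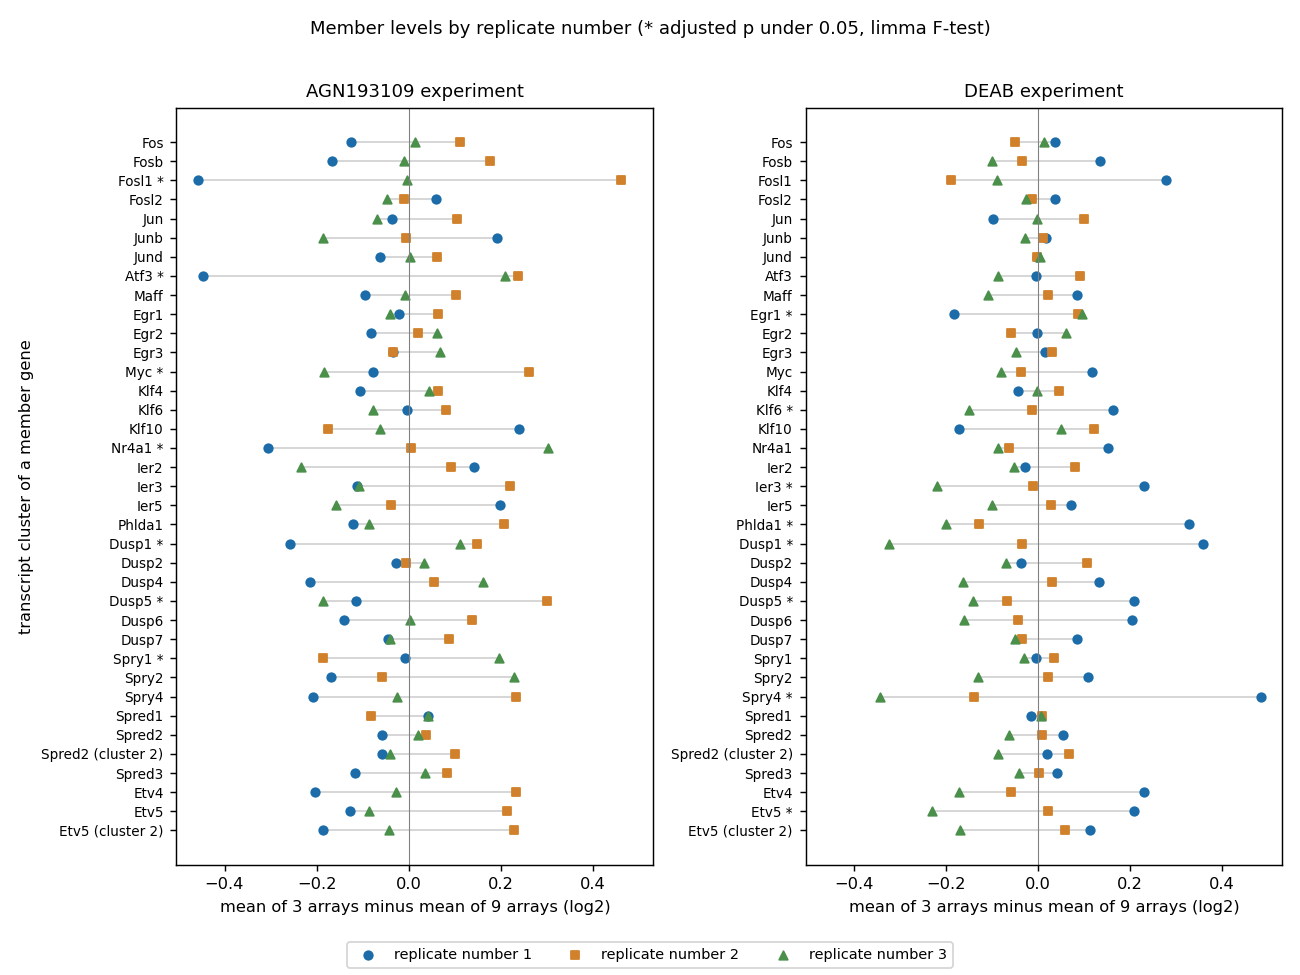
Mean level of each member cluster in the 3 arrays of each replicate number, minus its mean over the 9 arrays of the experiment (log2); stars mark an adjusted p under 0.05 in limma's F-test of replicate number. Fosl1 and Atf3 spread widest in the AGN193109 experiment and Spry4, Dusp1 and Phlda1 in the DEAB experiment.

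The rest of the pathway was read from a list of 66 genes, of which 58 had a cluster, 61 clusters in all: adaptors and RAS regulators, RAF and MEK kinases, ERK effectors and SRF partners, other DUSPs, other immediate early genes and other ERK outputs. The remaining 8 were not analysed here. Without the block 0 of 61 passed in any of the 6 comparisons in limma, with 3 higher and 2 lower at an unadjusted p under 0.05 for AGN193109 against vehicle (1.77% and 1.53% of all clusters) and 2 higher and 1 lower for DEAB against vehicle (2.17% and 1.88%). With the block, 2 passed for AGN193109 against vehicle, against 0.457% of all clusters. Etv1, the remaining PEA3-type factor, was higher by 0.82 in one cluster (limma adjusted p = 0.0477) and by 0.63 in its other cluster (0.0546), and Mknk2, a kinase that ERK activates, was lower by 0.71 (0.0058). The groups overlapped in both Etv1 clusters and not in Mknk2. Without the block the SE was 0.47 in the first Etv1 cluster (limma unadjusted p = 0.113) and 0.20 for Mknk2 (0.0061). Blocked fits with arrays left out are not given here for these 2 calls. With DEAB, Etv1 had 0.36 and 0.19 and Mknk2 -0.26, none past the test. The median change of the 61 clusters was 0.04 with AGN193109 and 0.01 with DEAB, beside 0.08 and 0.06 for the members.

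All 4 calls with AGN193109 and the 1 with DEAB depended on the fit: none was made without the block, or with the block in the 6 arrays compared or with clusters without a symbol added. With AGN193109, the blocked fit with 1 array left out kept Dusp1 only without an AGN193109 and tRA array (replicate 1 or 3, limma adjusted p = 0.0401 in each) and kept Nr4a1, Dusp6 and Spry4 only without vehicle replicate 2 (0.0152, 0.0474 and 0.0300). Without AGN193109 replicate 3 the 1 member called was Fosl1 (0.0401). Dusp1 with DEAB was lost in all 9 cases, with limma adjusted p from 0.0557 to 0.172. The directions of these 5 changes held in each case.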

How the data were processed

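The 18 arrays each measured RNA from mIMCD-3 cells. The authors normalized them with the Robust Multichip Average (RMA) in Affymetrix Expression Console and deposited log2 values, which were used as they are. RMA draws arrays that are normalized together towards 1 distribution, so changes within an experiment are relative to all transcripts. Array medians ran from 7.23 to 7.33 in the AGN193109 experiment and from 7.48 to 7.51 in the DEAB experiment. Levels therefore cannot be set against each other between the experiments. The Expression Console version was not given in the sources used here. Groups came from the titles (some label fields spell the antagonist AGN193110 or AGN193099), and vehicle arrays were told apart between experiments by how their short names are written.

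All 23410 clusters with a symbol were fitted in limma 3.58.1 (R 4.3.3) with 1 fit of 9 arrays per experiment, group means and Benjamini-Hochberg adjustment, called at an adjusted p under 0.05. Residuals of arrays with the same replicate number, which the labels give, correlated by 0.198 to 0.645 and 0.179 to 0.614 (9 of 9 pairs above 0.1 in each experiment), so replicate number was also a block. Pairs from different groups with different replicate numbers had -0.575 to 0.205 and -0.511 to 0.312, so the ranges overlapped. With 3 arrays against 3 a permutation cannot go below p = 0.1, so p rests on the model. The fits were tested on simulated data. The members and gene lists were chosen with earlier results of these data known. Members were given in full where called in either fit, among the 3 largest rises or falls without overlap, in the study's lists, or at the extremes of the vehicle level. Positions and promoters are RefSeq's (GRCm38). All 37 member symbols equal RefSeq's. Figures used matplotlib 3.10.9 (Python 3.11.15).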

Additional observations from a re-analysis of the deposited data

How the results depend on the processing

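Alternatives to the fit without a block were the replicate block, a second quantile normalization, leaving out dim clusters, adding clusters that have no symbol, fitting the 6 compared arrays alone, limma's trend and robust options, and leaving out single arrays. Some of these (added clusters, 6 arrays, single arrays left out) were also run on the blocked fit, chosen after seeing the data. Of 565 values of single members under the first set, 554 kept their direction and side of the threshold, 9 passed only in the alternative and 2 reversed. The count of members called went from 0 to 4 (AGN193109 against vehicle), 1 (DEAB against vehicle) and 3 (DEAB and tRA against DEAB) with the replicate block, and to 1 in the last with trend and robust, which was Atf3. Pathway genes called for AGN193109 against vehicle went from 0 to 2 with the block, and for DEAB and tRA against DEAB to 1, Errfi1, with trend and robust. The block moved no other count of called members or pathway genes between the 6 comparisons.

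With the block and clusters without a symbol added, or with the block in 6 arrays, 0 members were called for AGN193109 and 0 for DEAB, and 1, Dusp1, for DEAB and tRA against DEAB in 6 arrays. With an array left out, the blocked count ran from 0 to 3 for AGN193109 and was 0 for DEAB in each case. Of 88 values of members called with the block, 26 still passed and 62 did not.

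Leaving out arrays moved the members' median change between 0.0462 and 0.1881 (AGN193109 against vehicle, highest without vehicle replicate 2), between -0.0382 and 0.0571 (AGN193109 and tRA against AGN193109) and between -0.0199 and 0.0706 (DEAB and tRA against vehicle, 0.0391 with a second quantile normalization). The difference between the inhibitors ranged from -0.0190 (without replicate 1 of the vehicle arrays in the DEAB experiment) to 0.4995 for Spry4 and from -0.3497 to 0.0290 (without DEAB replicate 1) for Dusp1. Members called for replicate number in the AGN193109 experiment were 11 after a second quantile normalization, 0 with the added clusters, and 2 to 4 with an array left out. In the DEAB experiment they were 17 without dim clusters, 4 with the added clusters, 17 with trend and robust, and 4 to 13 with an array left out. The causes were not tested. The number of arrays limits the precision.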
